A study of Mus musculus with 6 samples.

Results

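The genes described here are 10 immediate early genes of the serum response: the AP-1 genes Fos, Fosb, Fosl1, Jun and Junb, and Egr1, Ier2, Ier3, Nr4a1 and Atf3. They were chosen by gene symbol among the probe sets (groups of array probes for 1 transcript) with a single symbol, and all 10 were found, each by 1 probe set, among 19938 genes measured. Total RNA of mouse iPSCs (induced pluripotent stem cells, made by reprogramming fibroblasts) was hybridised to 6 Affymetrix arrays, 3 of them labelled naive and 3 primed. Naive cells were kept in DMEM with 15% fetal bovine serum and leukaemia inhibitory factor (ESGRO LIF) at 1000 U/ml, with NEAA, L-Glu, Na-Pyr and B-Merc. Primed cells were kept in medium conditioned by mouse embryonic fibroblasts (MEF-CM) with bFGF at 8 ng/ml, on feeders or matrigel. Whether the primed medium held serum, which arrays came from feeders, and how long before lysis the medium was last changed, is not given in the sources used here. By the titles the naive cells came from embryonic and the primed cells from adult dermal fibroblasts, while another label gives embryonic fibroblasts for all. If the titles hold, culture and origin cannot be told apart. The arrays of a group are called biological replicates without a statement of what was repeated. The p-values set each difference against the spread between these samples, and reach no further than whatever was repeated.

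Immediate early genes are transcribed within minutes of a stimulus, without new protein synthesis. Serum and growth factors act through ERK, which phosphorylates ternary complex factors such as ELK1 that sit with serum response factor (SRF) on CArG boxes of these genes. A parallel branch runs from actin to SRF through MRTF and drives cytoskeletal genes, and cAMP and stress kinases act through CREB and ATF proteins at cAMP response elements (CREs). Most immediate early transcripts are short-lived, and dissociation, cooling or a medium change before lysis can also induce them. Most encode transcription factors. FOS and JUN proteins pair to form AP-1.

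Promoter sequences from RefSeq (build GRCm38.p6) were at hand for 7 of the 10 genes. In the 250 bases before the start, the CRE core CGTCA, which is 1 arm of the full element, searched on both strands, occurred in 5 of the 7 and in 17.8% of 32851 promoters of the same length. The full palindromic CRE TGACGTCA, the AP-1 element TGACTCA and the CArG box were in 0 of the 7 windows, and in 1.55%, 4.46% and 1.47% of all promoters. Bases further upstream were not searched, and Egr1, Ier2 and Fosl1 had no sequence at hand. The 0 of 7 therefore does not show that these genes lack such elements. The core is part of the full CRE, so these searches overlap. Fos and Atf3, which were higher in primed cells, and Junb and Nr4a1, which were higher in naive cells, are shown because genes of both directions carry the core. Capitals mark CGTCA or its reverse complement. Fos lies at chr12:85473640-85473889 on the + strand, Atf3 at chr1:191183334-191183583 on the - strand and Junb at chr8:84978749-84978998 on the - strand. For Nr4a1 a 30-base stretch, chr15:101266793-101266822 on the + strand, is given around the core nearest the start, since its start lies inside a longer annotated gene.
Fos: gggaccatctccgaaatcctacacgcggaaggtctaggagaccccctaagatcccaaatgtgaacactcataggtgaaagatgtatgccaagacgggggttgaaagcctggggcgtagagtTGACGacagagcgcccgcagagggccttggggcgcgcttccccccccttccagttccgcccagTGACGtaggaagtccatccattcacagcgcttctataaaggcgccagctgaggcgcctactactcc
Atf3: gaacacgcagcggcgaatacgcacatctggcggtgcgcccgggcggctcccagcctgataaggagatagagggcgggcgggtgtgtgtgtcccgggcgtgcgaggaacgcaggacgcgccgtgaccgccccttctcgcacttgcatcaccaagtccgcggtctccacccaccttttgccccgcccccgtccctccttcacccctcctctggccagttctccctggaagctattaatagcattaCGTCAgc
Junb: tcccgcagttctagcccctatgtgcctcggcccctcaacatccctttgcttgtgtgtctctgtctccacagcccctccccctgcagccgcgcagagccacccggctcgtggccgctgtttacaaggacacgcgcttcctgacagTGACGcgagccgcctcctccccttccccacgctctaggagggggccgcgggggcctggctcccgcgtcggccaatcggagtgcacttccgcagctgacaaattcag
Nr4a1: gcccctctccatgCGTCAcggagcgcttaa
The cores of Fos began 129 and 66 bases before the start, that of Atf3 7 bases, that of Junb 106 bases and those of Nr4a1 233, 213, 69 and 40 bases. The same letters were thus present in genes of both directions. A match is a string of letters and does not show that a factor binds there.

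The immediate early genes did not move as a block between naive and primed cells. Levels are log2 RMA values, and a difference is primed minus naive. Atf3, Egr1 and Fos were higher in primed cells, by 0.47, 0.37 and 0.32. Fosl1, Nr4a1 and Junb were higher in naive cells, with differences of -0.86, -0.49 and -0.29. Jun, Fosb, Ier2 and Ier3 did not pass the threshold. Thus 3 of 10 (30%) were called higher in primed and 3 of 10 (30%) higher in naive cells (limma, adjusted p under 0.05), against 21.8% and 22.7% of all genes tested, a background of 44.5% in either direction. The groups did not overlap for 8 of the 10, against 52.9% of all genes. No member differed 2-fold or more, and their median difference was 0.05, against -0.001 over all genes; it was -0.02 after median centring. All 10 lay above background on all 6 arrays, where background is set by odorant and pheromone receptor genes, at their 95th percentile on the same array (6.96 to 7.03). In bulk samples such as these, fewer cells of a type and less RNA per cell cannot be told apart.

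**Figure D1:**
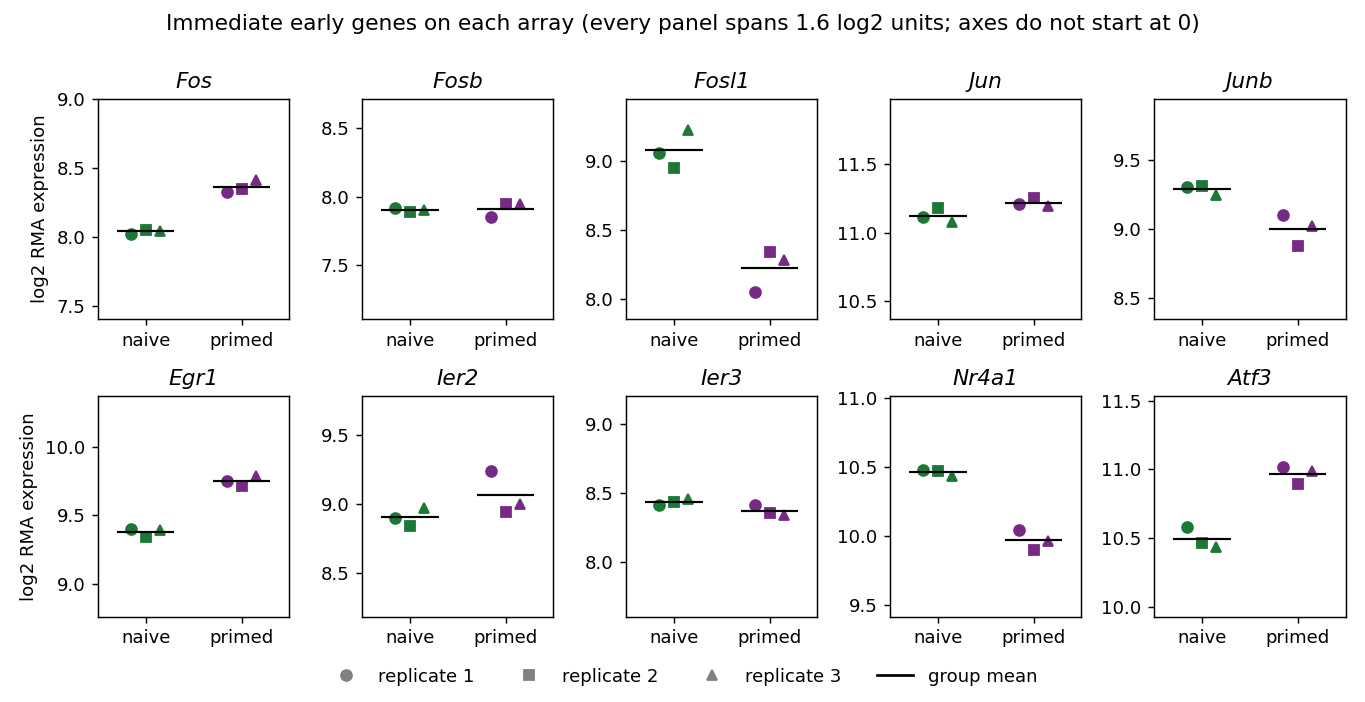
log2 RMA expression (vertical axes) of the 10 genes on the 3 naive (green) and 3 primed (purple) arrays, with symbols for replicates and a line for the group mean; each panel has its own axis of the same span. Atf3, Egr1 and Fos sit higher on all 3 primed arrays, Fosl1, Nr4a1 and Junb sit lower, and Fosb and Ier2 overlap.

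Among the FOS family genes, Fos was at 8.03, 8.05 and 8.05 on the naive arrays and at 8.33, 8.35 and 8.42 on the primed arrays. Fos encodes the classic partner of JUN in AP-1, and every primed array lay above every naive array. The difference was 0.32 (SE 0.05, limma adjusted p = 0.00029), or 1.25-fold. Fosb, a close relative of Fos, was at 7.92, 7.89 and 7.90 in naive cells and at 7.85, 7.94 and 7.94 in primed cells. The groups overlapped, and the difference of 0.01 had a 95% interval from -0.11 to 0.12. Fosl1, which encodes FRA1 and is itself a target of AP-1 and of sustained ERK activity, was at 9.06, 8.95 and 9.23 in naive cells and at 8.05, 8.34 and 8.28 in primed cells. All 3 primed arrays lay well below all naive arrays. This was the largest difference among the members, -0.86 (SE 0.09, limma adjusted p = 9.7e-06), or 1.81-fold higher in naive cells. Fosl1 is also expressed in fibroblasts. Of 14 measured fibroblast marker genes, naive cells had more of 6 (42.9%) and primed cells more of 2 (14.3%). The shares of all genes were 22.7% and 21.8%. Of the 14, 3 (Lum, Postn and Prrx1) lay in background in both groups, and Postn (-0.34) is counted among the 6. The mean log2 level of the 14 ranged from 7.78 to 7.82 in naive cells and from 7.81 to 7.84 in primed cells, with the rise of Dcn, a matrix proteoglycan gene (7.25 to 10.15), included. Without Dcn, left out after its value was seen, the other 13 had a mean of 7.83 to 7.86 in naive cells and of 7.62 to 7.68 in primed cells, with Col1a1 at -0.76 the largest fall. The part of these genes in the Fosl1 difference was not tested.

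Of the JUN family genes, Jun, which encodes the core AP-1 subunit, was at 11.11, 11.18 and 11.07 in naive cells and at 11.20, 11.25 and 11.19 in primed cells. The groups were separated by a narrow margin, and the difference of 0.09 (95% interval -0.02 to 0.21) did not pass (limma adjusted p = 0.19). After quantile normalization it was 0.17 and passed (adjusted p = 0.016). Junb, whose product often opposes that of Jun and is also induced by LIF and STAT3, was at 9.30, 9.31 and 9.25 in naive cells and at 9.10, 8.87 and 9.02 in primed cells. The naive arrays were all higher, and the primed arrays were more scattered. The difference was -0.29 (SE 0.06, limma adjusted p = 0.0031), or 1.22-fold.

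Egr1, a zinc finger factor and a direct target of SRF with ternary complex factors, was at 9.40, 9.35 and 9.40 in naive cells and at 9.75, 9.71 and 9.79 in primed cells. The 2 groups were well apart, with a difference of 0.37 (SE 0.05, limma adjusted p = 9.8e-05), or 1.29-fold. Nr4a1, an orphan nuclear receptor gene known as Nur77, went the other way. It was at 10.48, 10.47 and 10.44 in naive cells and at 10.04, 9.89 and 9.97 in primed cells, and all naive arrays were higher. Its difference was -0.49 (SE 0.05, limma adjusted p = 1.8e-05), or 1.41-fold. Their relatives Egr2, Egr3 and Egr4 differed by 0.11, -0.06 and 0.12 and did not pass (limma adjusted p = 0.20, 0.51 and 0.22). Egr2 passed without naive replicate 1 (0.17, adjusted p = 0.048) and Egr4 without primed replicate 1 (0.19, adjusted p = 0.033) or with array weights (0.17, adjusted p = 0.048). Nr4a2 differed by -0.08 (limma adjusted p = 0.19) and passed after quantile normalization (-0.15, adjusted p = 0.016) or median centring (-0.16, adjusted p = 0.019). Nr4a3, in background in both groups, differed by 0.37 (limma adjusted p = 0.00024).

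Atf3, which encodes a stress-induced bZIP factor that can repress its own promoter, was at 10.59, 10.47 and 10.44 in naive cells and at 11.02, 10.89 and 10.99 in primed cells. It had the largest rise among the members, with all primed arrays above all naive arrays. The difference was 0.47 (SE 0.06, limma adjusted p = 5.4e-05), or 1.38-fold. Ier2 and Ier3 encode small nuclear or stress-response proteins. Ier2 was at 8.90, 8.84 and 8.97 in naive cells and at 9.24, 8.95 and 9.00 in primed cells. Only primed replicate 1 stood clear of the naive range by a wide margin, and the groups overlapped. The difference of 0.16 (95% interval -0.01 to 0.33) did not pass (limma adjusted p = 0.12), and it was 0.07 without that array. Ier3 was at 8.42, 8.44 and 8.46 in naive cells and at 8.41, 8.36 and 8.34 in primed cells. The groups nearly touched, and the difference of -0.07 (95% interval -0.18 to 0.04) did not pass (limma adjusted p = 0.33). It passed after median centring (-0.14, adjusted p = 0.034) and after quantile normalization (-0.14, adjusted p = 0.026).

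**Figure D2:**
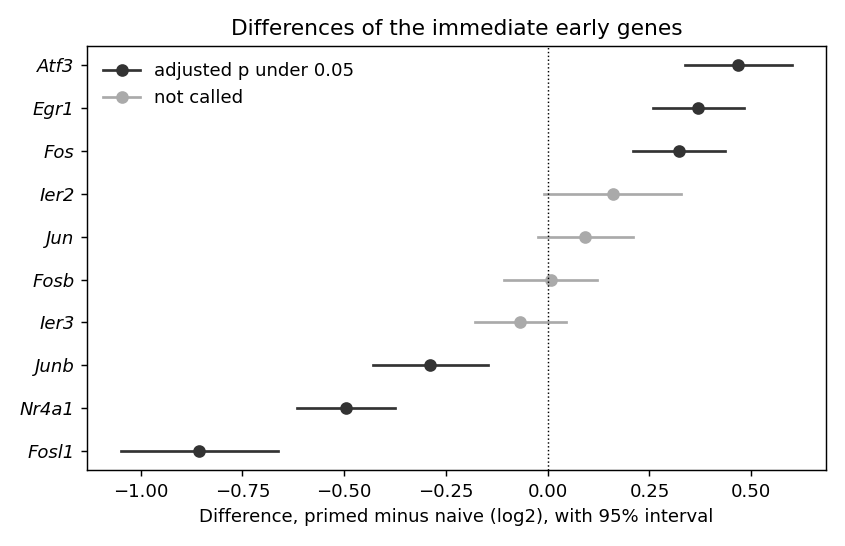
Difference between primed and naive cells (horizontal axis, log2) of each gene, as points with 95% intervals from limma, dark where the adjusted p was under 0.05. The called differences run from -0.86 for Fosl1 to 0.47 for Atf3, with 3 on each side of 0.

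Because these genes respond to handling, the spread between replicate arrays was read gene by gene. Spread and deviations within a group cannot show handling that differed between the naive and the primed cultures. The residual SD of the fit had a median of 0.049 over the 10 genes, against 0.072 over all genes, and 7 of the 10 lay under the median of all genes. Ier3, Egr1 and Fos were among the steadiest genes measured, at percentiles 6.26, 7.06 and 8.78 of residual SD (0.032, 0.033 and 0.035). Fosl1 (0.148) and Ier2 (0.120) were among the more variable, at percentiles 95.2 and 87.7, followed by Junb (0.086, percentile 65.0). Fosl1 had an SD of 0.14 on naive and 0.15 on primed arrays, both small beside its difference of -0.86. For Ier2 the primed SD of 0.16 was as large as the difference of 0.16.

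No array was high or low for the set as a whole. The median deviation from the group mean over the 10 genes lay between -0.026 (primed replicate 2) and 0.023 (primed replicate 1). Primed replicate 1 held the highest primed value for 5 genes and the lowest for 3. Primed replicate 2 held the lowest for 5 genes. In primed replicate 1, Ier2, Junb and Nr4a1 were above the group mean by 0.18, 0.10 and 0.07, while Fosl1 deviated by -0.18. Over 52 further early response genes the median deviations of these arrays were 0.046 and -0.038, in the same order. Over all genes they were 0.016 and -0.006, again in that order, and over 9 heat shock genes 0.003 and -0.001. The 6 calls among the members held without each array in turn.

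**Figure D3:**
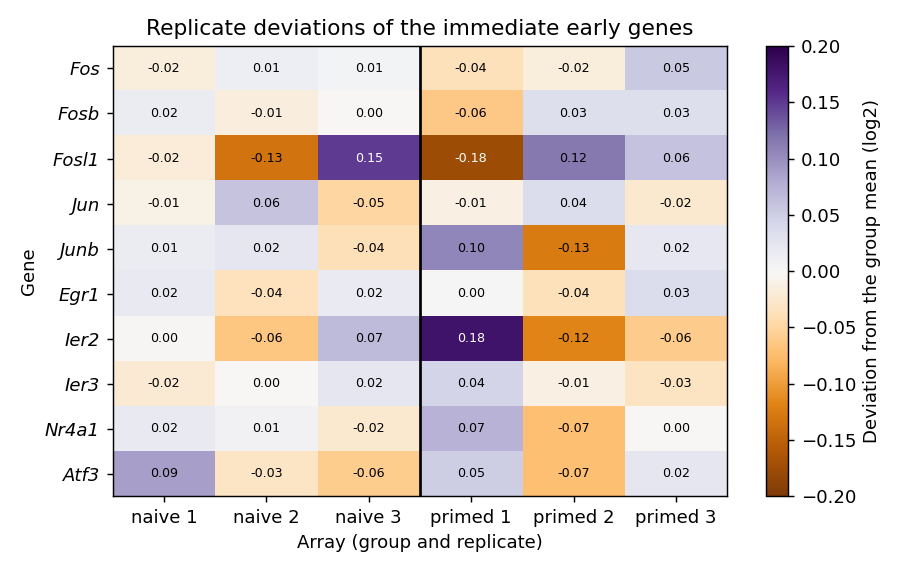
Deviation of each array (columns) from its group mean for each gene (rows), in log2 units printed in the cells, with purple above and orange below the mean. The strongest colours belong to Fosl1 and Ier2, while Fos, Egr1 and Ier3 stay within 0.06 of their group means on all arrays.

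Beyond the members, 54 other early response genes were listed and 52 measured. In this list 24 (46.2%) were called on the naive side, 10 (19.2%) on the primed side and 18 on neither. Of all genes, 22.7% were called on the naive and 21.8% on the primed side. The median difference of the list was -0.13, against -0.001 over all genes. Sgk1, a serum- and glucocorticoid-induced kinase gene, went from 9.58 ± 0.07 in naive to 7.08 ± 0.02 in primed cells (SD, n = 3), 5.67-fold higher in naive cells and near background in primed cells. Ptgs2, the inducible cyclooxygenase gene, differed by -1.51, Csrnp1, a nuclear factor gene, by -1.28 and Crem, the cAMP response modulator gene, by -1.04. Dusp1, Zfp36 and Btg2, picked after their values were seen because they are often read with Fos and Egr1 as signs of handling, differed by -0.25, -0.43 and 0.38 (limma adjusted p = 0.002, 0.00021 and 6.6e-05). Of these 3, Btg2 was higher in primed cells. Markers of handling stress of another kind, the heat shock genes, were called on the naive side for 8 of 9 measured (88.9%). Hspb1 (-0.88), Hspa1a (-0.80), Hsph1 (-0.65) and Dnajb1 (-0.50) led them, and Bag3, the exception, differed by 0.02. The mean log2 level of these 9 genes ranged from 11.82 to 11.87 in naive cells and from 11.37 to 11.42 in primed cells. Its part in the differences of the immediate early genes was not tested.

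Among 13 measured bZIP partners and relatives, 3 (23.1%) were called on each side, with a median of -0.01. These shares are near those of all genes, 21.8% on the primed and 22.7% on the naive side. Fosl2, the nearest relative of Fosl1, was lower in primed cells as well (-0.67). Jdp2, for a repressor that pairs with JUN, rose from 8.18 ± 0.06 to 8.82 ± 0.06 (SD, n = 3), Atf4 rose by 0.60 and Mafg, a small MAF gene, by 0.41. Jund, a JUN gene expressed in most cells without a stimulus, did not pass (0.04, limma adjusted p = 0.71). Fosl2, Jund and Maff are also in the early response list, and Crem is in both that list and the regulator list. Atf4 is also in the ATF4 stress list below, so its rise is counted in both.

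Of 12 SRF and EGR regulators, 6 (50%) were called on the naive side and 1 (8.33%) on the primed side, with a median of -0.20. The shares of all genes were 22.7% and 21.8%. Fhl2, an SRF and AP-1 cofactor gene, went from 9.44 ± 0.09 to 7.30 ± 0.04 (SD, n = 3), and Elk3, for a ternary complex factor that can repress Fos, differed by -1.04. Nab1, an EGR corepressor gene, differed by -0.46, and Srf itself, named after its value was seen, by -0.37 (limma adjusted p = 0.00031). Elk1 was the 1 rise (0.19, limma adjusted p = 0.026). It did not pass after median centring (adjusted p = 0.11), without naive replicate 2 (0.10) or without primed replicate 1 (0.088). Of 18 listed genes of the ERK cascade 12 were measured. Of these, 6 (50%) were called on the naive side and 1 (8.33%) on the primed side, with a median of -0.14. Sos2, a RAS exchange factor gene, rose by 0.75, while Rps6ka3, Grb2 and Map2k2 differed by -0.39, -0.26 and -0.23. Without primed replicate 2 the cascade had 2 rises. Its median was -0.07 after quantile normalization and -0.21 after median centring, and 0 of its 6 naive-side calls held when tested against a difference of 0.25 (limma's treat).

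The other branch of the serum response, the cytoskeletal targets of SRF and MRTF, was called on the naive side for 15 of 16 genes. This share of 93.8% stood against 22.7% of all genes, and the median of these targets was -0.68. Myl9 (-1.71), Cnn1 (-1.38), Acta2 (-1.23) and Tagln (-1.09), all contractile genes, led them. Myh9, the exception, differed by -0.08 in its brighter probe set and by -1.16 in the other. By direction these genes lay on the side of Fosl1, Junb and Nr4a1, while Fos, Egr1 and Atf3 lay on the other. Jun, Fosb, Ier2 and Ier3 were not called. A link between the members and this branch was not tested. The list by which Atf3 is also known, the ATF4 stress response, was called on the primed side for 12 of 12 genes. Of all genes 21.8% were called on that side, and the median of the ATF4 list was 0.71. Chac1 (2.95), Vldlr (1.90), Trib3 (1.51) and Ddit3 (1.46) had the largest rises. The mean log2 level of these 12 genes ranged from 9.31 to 9.35 in naive cells and from 10.29 to 10.37 in primed cells, and its part in the rise of Atf3 was not tested.

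**Figure D4:**
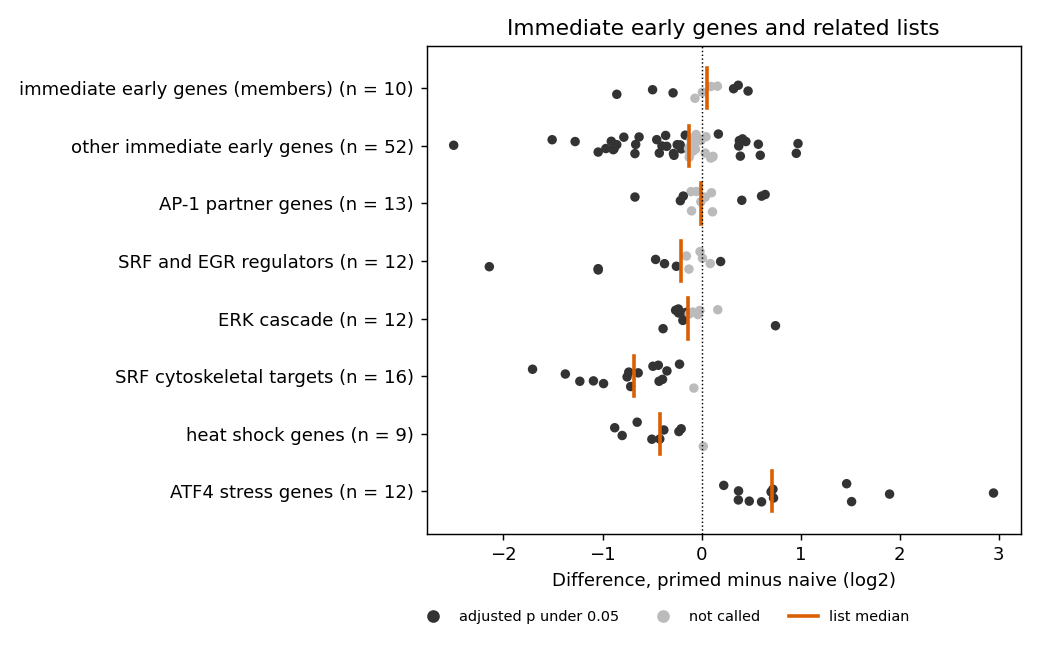
Difference between primed and naive cells (horizontal axis, log2) of each measured gene in the members and the related lists, dark where the adjusted p was under 0.05, with list medians in orange and a random vertical scatter. The members straddle 0, the SRF cytoskeletal targets and heat shock genes lie on the naive side and the ATF4 genes lie on the primed side.

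Profiles over the 6 arrays were compared by Euclidean distance after centring each gene on its mean, among 14284 genes above background in at least 1 group. Nearest to Atf3 were Ankrd13b (distance 0.06), Inca1 (0.07) and Irs1 (0.07), with differences of 0.51, 0.48 and 0.45. Nearest to Fosl1 were 5730507C01Rik (0.16), Il17rb (0.21) and Sync (0.21), with differences of -0.94, -0.83 and -0.72. These distances include the group difference itself.

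The labelled cell type was checked against pluripotency markers. Pou5f1, Sox2, Nanog, Sall4, Lin28a, Tdgf1 and Utf1 were at 11.37 or higher on all arrays of both groups. Markers of the naive state did not all follow the labels. Esrrb, a factor of naive self-renewal, was at 8.25 ± 0.11 in naive and at 11.24 ± 0.02 in primed cells (SD, n = 3), 7.90-fold higher in the cells labelled primed. Zfp42, another naive marker, lay in background in both groups. Dppa5a did follow the labels, at 8.17 ± 0.14 in naive and at 6.66 ± 0.25 in primed cells (SD, n = 3). It was 2.85-fold higher in naive cells and lay in background in primed cells. Of the 10 markers, naive cells had more of 6 (60%) and primed cells more of Esrrb alone (10%). Of 10 markers of differentiated cells, 2 (20%) were called on each side, or 4 on the naive side after median centring. The 20% is near the shares of all genes, 21.8% on the primed and 22.7% on the naive side. Eomes, a gene of early mesoderm and trophoblast, was at 9.90 ± 0.06 in naive and at 7.70 ± 0.03 in primed cells (SD, n = 3), 4.59-fold higher in the cells labelled naive. Array medians over all probe sets lay between 7.77 and 7.83.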

How the data were processed

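The deposited values were log2 expression values per probe set. The authors made them with RMA in Partek 6.6 according to the submitters' processing notes. RMA's options and the genome build were not given in the sources used here. RMA shrinks differences between dim probe sets, and no detection calls came with the values.

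Of 35556 probe sets, 21789 had 1 gene symbol in GEO's platform annotation, 1621 had several and were not used, and 12146 are not named here. Symbols were updated by gene ID through RefSeq's GRCm38.p6 table, which matched 21698. Where a gene had several probe sets, the brightest by mean over all arrays stood for it, which left 19938 genes. Background was taken from 1190 receptor genes.

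Primed and naive arrays were compared by a two-sided limma test (limma 3.58.1 under R 4.3.3, lmFit then eBayes) with no covariates. P-values were adjusted by Benjamini and Hochberg's method over the 19938 genes, and an adjusted p under 0.05 was called. The number of arrays limits the precision. In simulated arrays of 19938 genes, the test recovered 38% of genes with a planted difference of 0.25, 90% at 0.5 and 100% at 1 and at 2. It called 6 genes that had none. Each size was planted in 50 genes, while 8876 genes were called in the data. The adjustment is stricter where fewer genes change, so these shares do not carry over to the data.

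The members and lists were chosen with earlier results of these data known, so their counts carry no test of their own. Besides the members, the 4 called genes of each list with the largest difference and at least 1 group above background could be named, as could the 3 nearest profiles to the member with the largest difference in each direction. Other list genes were named after their values were seen. Alternatives were quantile normalization, median centring, removal of the dimmest 40% of genes, the mean over probe sets, each probe set alone, a robust fit with an intensity trend, weighted arrays, a block for the replicate number, 2 stricter calls and each array left out. Figures were drawn with matplotlib 3.10.9 in Python 3.11.15.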

Additional observations from a re-analysis of the deposited data

How the results depend on the processing

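The counts of 3 members on the primed and 3 on the naive side were the same without each array in turn, with the dim genes removed, with an adjusted p under 0.01 and with array weights. The largest effect came from testing against a difference of 0.25 (limma's treat), which leaves only larger differences to call. All genes higher in primed then numbered 1869 and those higher in naive 1686, members higher in primed 1, and other early response genes 6 and 13. Naive-side calls went from 6 to 0 in the ERK cascade, from 3 to 1 among AP-1 partners, from 8 to 5 among heat shock genes and from 6 to 2 among fibroblast markers. Fos (0.32, adjusted p = 0.38), Egr1 (0.37, adjusted p = 0.098) and Junb (-0.29, adjusted p = 1) no longer passed. Jun (0.17) and Ier3 (-0.14) passed after quantile normalization, and the cause was not tested. Ier3 (-0.14) also passed after median centring, which subtracts the median of each array and so moved every difference by -0.07. With median centring the calls over all genes went from 4347 on the primed and 4529 on the naive side to 3439 and 6325.

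Directions turned for genes that were not called. Fosb was at -0.040 after quantile normalization and -0.063 after median centring, Jund at -0.035 and Bag3 at -0.054 after median centring. Without each array in turn, Fosb lay between -0.009 and 0.040, Jund between -0.003 and 0.103, Egr3 between -0.107 and 0.007, and Bag3 between -0.006 and 0.062. Other ranges were 3926 to 4169 and 4007 to 4455 for all genes higher in primed and in naive cells, and 9 to 11 and 23 to 25 for the other early response genes.

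The labels state no pairing, and no shared deviation was seen by replicate number. Deviations of same-numbered arrays from their group means correlated at -0.11, 0.00 and -0.02 across genes. With 3 arrays per group, such correlations cannot exclude a pairing. With the replicate block, 4172 genes were higher in primed and 4344 in naive cells, and the members' counts were 3 and 3.

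With 3 arrays per group, 38% of the differences of 0.25 planted in the simulation were recovered. The simulation had far fewer changed genes than the data, so the share missed in the data is not known.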
